A study of Homo sapiens with 30 samples.

Results

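The TSC22 domain family was followed in precision run-on sequencing (PRO-seq) libraries of A549, a human lung adenocarcinoma cell line. PRO-seq labels RNA that polymerases are extending at the moment of harvest, so its counts measure nascent transcription and not the amount of mature mRNA. The family members were the rows of the count table named TSC22D1, TSC22D2, TSC22D3 and TSC22D4. These 4 genes are 4 of the 58780 genes in the table, and all 4 were among the 22919 genes that passed the filter on low counts.

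TSC22 domain proteins carry a short conserved TSC box followed by a leucine zipper, through which they form dimers with one another. TSC22D3 is better known as GILZ, the glucocorticoid-induced leucine zipper, a direct target of the glucocorticoid receptor whose protein binds NF-kappaB and AP-1 subunits. TSC22D1 was first found as a gene stimulated by TGF-beta. Long forms of TSC22D1, TSC22D2 and TSC22D4 have been linked to the pseudokinase NRBP1 and to WNK kinases, which set ion transport and cell volume.

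There were 15 groups of 2 libraries. Dexamethasone (Dex), a synthetic agonist of the glucocorticoid receptor, was given at 100 nM for 15 min or 3 h. Arginine methylation was blocked with GSK591, which inhibits PRMT5, or with MS023, which inhibits the type I enzymes, each at 1 µM for 2, 4 or 7 days. Each inhibitor was also given together with Dex for 3 h, or for 7 days with Dex added for the last 15 min or 3 h, as far as the labels tell. All libraries, the untreated ones included, had 0.01% DMSO. The untreated libraries are labelled as 15 min, so no vehicle library matches 3 h or the days of inhibitor, and the effects of time and of treatment cannot be told apart there. No label says whether the 2 libraries of a group came from separate cultures, so p-values measure only the spread between these libraries.

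Total counts per library ran from 8441211 to 13069598, of which mitochondrial genes took 58.7% to 78.7%. The share was 73.4% to 76.0% in untreated cells and 58.7% to 59.6% after 7 days of MS023. Levels are therefore given as CPM, counts relative to a library size that was first adjusted by TMM, a scaling in which a few very abundant genes carry little weight. Of the epithelial genes looked at, KRT8 stood at 157 to 456 CPM, KRT18 at 56.5 to 189 CPM and KRT19 at 6.34 to 33.8 CPM. CDH1 (1.00 to 6.65 CPM) and EPCAM (0.957 to 6.19 CPM), of the same list, were low. AKR1B10, from a separate list of A549 markers, stood at 101 to 209 CPM. CDKN2A and CDKN2B, which lie in a region A549 has lost, had 0 to 3 counts. MTAP, listed with them as lost, stood at 6.53 to 15.3 CPM. Of the other cell types' markers, PTPRC and CD3E of blood cells and DCN and LUM of fibroblasts had at most 8 counts and PECAM1 and CDH5 of endothelium at most 16, while CD14 of monocytes had 0.613 to 5.82 CPM and COL1A1 of fibroblasts 2.41 to 8.24 CPM. Their part in the members' values was not tested.

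In GENCODE 29 on hg38, TSC22D1 (ENSG00000102804.14) spans chromosome 13 from 44432143 to 44577147 on the minus strand. TSC22D2 (ENSG00000196428.12) spans chromosome 3 from 150408335 to 150466431 on the plus strand. TSC22D3 (ENSG00000157514.16) spans chromosome X from 107713221 to 107777342 on the minus strand and has 17 annotated transcripts with 17 different starts. TSC22D4 (ENSG00000166925.8) spans chromosome 7 from 100463359 to 100479279 on the minus strand. Whether counting used strand is not given in the sources used here, so reads in exons shared with another gene cannot be assigned. For TSC22D3 that concerns 71 bases shared with NCBP2L on the opposite strand, a gene with 0 to 14 counts per library. TSC22D4 shares 391 bases with C7orf61 on the same strand, a gene with 2 to 25 counts. TSC22D1 shares 469 bases with the antisense gene TSC22D1-AS1 (79 to 248 counts), 117 bases with AL139184.1 (5 to 21 counts) and 535 bases with AL138960.2, which had 0 counts. TSC22D2 shares none.

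Promoter windows in RefSeq on GRCh38.p14 were found for 3 of the 4 members, in 10 windows. The stretches shown belong to the 2 members called higher at 3 h of Dex, with a TATA-bearing stretch of TSC22D1 beside that of TSC22D3. Each is written 5′ to 3′ on the minus strand, with motifs in capitals.
TSC22D3, upstream stretch, chrX:107717136-107717312: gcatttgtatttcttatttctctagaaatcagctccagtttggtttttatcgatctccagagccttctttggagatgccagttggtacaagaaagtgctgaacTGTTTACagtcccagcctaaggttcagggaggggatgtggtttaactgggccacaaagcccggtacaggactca
TSC22D3, TATA stretch, chrX:107717074-107717103: cggctcctcctaTATAAAgaagcaggagcc
TSC22D1, TATA stretch, chr13:44576341-44576370: cgtgaagcagaaTATAAAggggggtgtgag
TSC22D4, upstream stretch, chr7:100479280-100479464: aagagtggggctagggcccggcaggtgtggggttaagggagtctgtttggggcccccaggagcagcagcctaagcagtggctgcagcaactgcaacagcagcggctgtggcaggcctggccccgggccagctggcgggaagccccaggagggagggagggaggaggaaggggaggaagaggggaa

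The capitals in the upstream stretch of TSC22D3 mark the forkhead motif TGTTTAC, which begins 147 bases before the transcript start at 107717062. On both strands this motif was found in 2.98% of the 35116 RefSeq windows searched over the 250 bases before the start. TATAAA, searched on the transcript's strand only, begins 29 bases before that TSC22D3 start and 28 bases before the TSC22D1 start at 44576330, and 6.8% of windows hold it. The full palindromic glucocorticoid response element, searched on both strands, was found in no member window and in 1 of the 35116 windows (0.00285%). Its half-site TGTTCT, present in 12.4% of windows on either strand, was found once among the members, 94 bases before the TSC22D1 start at 44474341. The TSC22D4 window held none of these motifs, and none of TGACG, a cAMP response half-site held by 21.2% of windows, which TSC22D3 carried at 60 and 50 bases before the start at 107717062 and, on the other strand, at 123 bases before the start at 107775787. Such matches describe letters only.

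Per kilobase of annotated exon, TSC22D3 had the highest mean level of the members and TSC22D4 the lowest. Whether reads in introns were counted is not given, and no other length was used, so this order holds for exon length only. Averaged over the 15 groups, the level was 13.5 CPM per kb for TSC22D3, 5.83 for TSC22D2, 5.48 for TSC22D1 and 4.04 for TSC22D4. Among 14978 tested protein-coding genes these levels lie at the 97.1st, 88.5th, 87.4th and 81.0th percentiles. In untreated cells the order was different, with TSC22D2 at 5.31 ± 0.263 CPM per kb (SD, n = 2), TSC22D1 at 4.44 ± 0.421, TSC22D3 at 3.19 ± 0.515 and TSC22D4 at 3.08 ± 0.328. The last 2 differed by less than the SD of either. The members also differed in how far they moved over the groups: the highest group mean was 10.4 times the lowest for TSC22D3, 2.53 times for TSC22D4, 1.85 times for TSC22D2 and 1.76 times for TSC22D1.

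**Figure D1:**
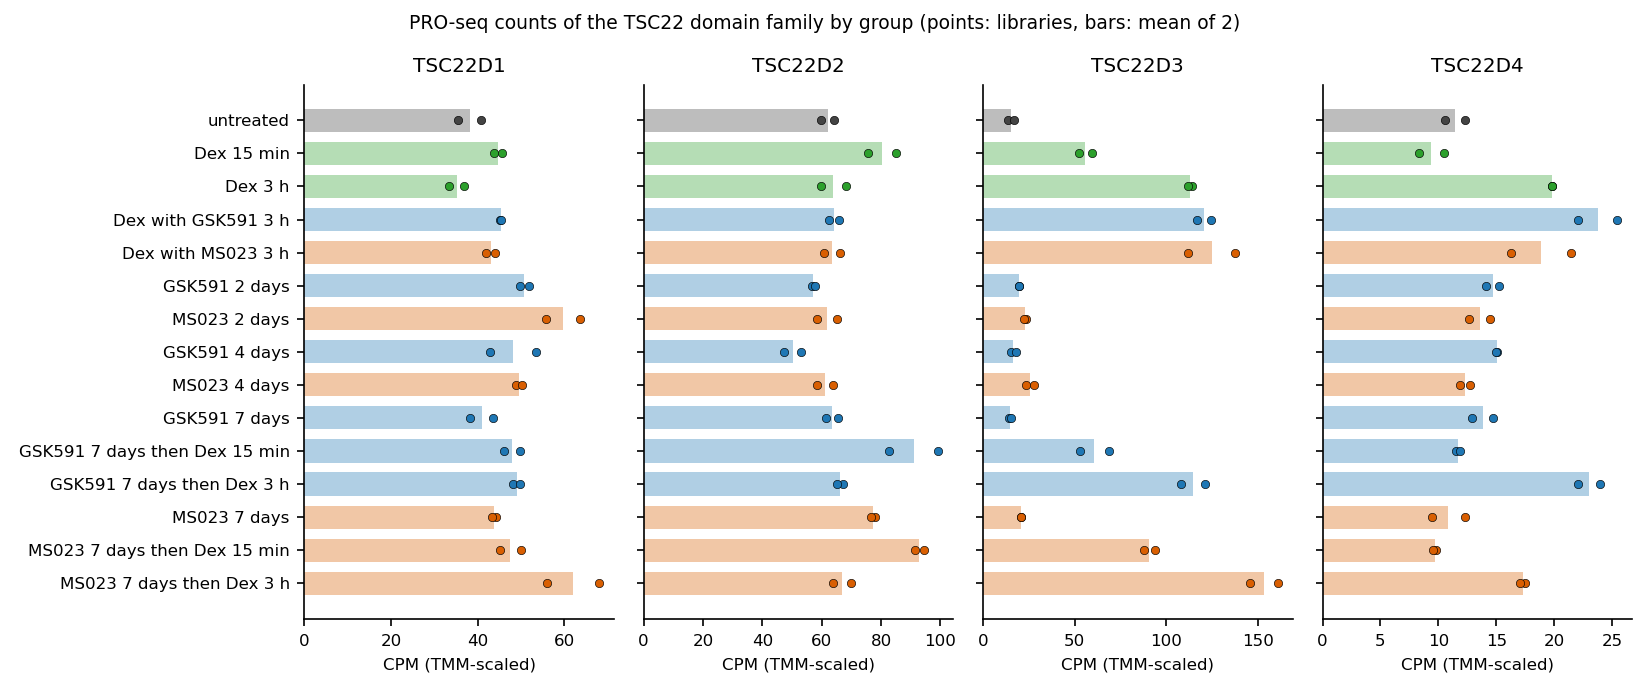
Level of each member in CPM (TMM-scaled, linear axis from 0) in the 15 groups, with a bar for the mean of 2 libraries and a point for each library. TSC22D3 stands apart in every group given Dex, TSC22D4 in the groups given Dex for 3 h, and the axes differ between panels.

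TSC22D3, the known glucocorticoid target, rose within 15 min of Dex and rose further by 3 h. The untreated libraries stood at 13.5 and 16.9 CPM, the libraries at 15 min at 52.2 and 59.5 CPM, and those at 3 h at 114 and 112 CPM. No 2 of these 3 groups overlapped. The log2 fold change against untreated was 1.87 at 15 min (SE 0.134, adjusted p = 3.63e-15) and 2.89 at 3 h (SE 0.133, adjusted p = 2.08e-22), and the step from 15 min to 3 h was 1.01 (SE 0.118, adjusted p = 8.66e-09). At 15 min TSC22D3 was the only member of 4 to pass the threshold, where 1.26% of all tested genes did. Its rise there was the 8th largest among the 203 genes called higher that averaged 5 CPM or more, and its rise at 3 h the 10th largest among 1063. NCBP2L, the opposite-strand gene that shares 71 bases, had 0 counts in both untreated libraries and 4 and 5 counts at 3 h, against 1070 and 916 for TSC22D3.

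Adding an inhibitor along with Dex left no called difference in TSC22D3. Dex with GSK591 gave 117 and 124 CPM, a log2 difference from Dex alone of 0.10 (95% interval -0.14 to 0.33, adjusted p = 0.974). Dex with MS023 gave 138 and 112 CPM, a difference of 0.15 (95% interval -0.09 to 0.38, adjusted p = 0.615). The first comparison called 0 of the 22919 genes with edgeR (percent called 0), with 1306 genes at an unadjusted p under 0.05. DESeq2 also called 0, while edgeR called 16 with the compared groups alone and 2 without the filter. The second called 0.196% of genes and none of the 4 members. TSC22D4 had 25.4 and 22.1 CPM with GSK591 and 21.4 and 16.2 CPM with MS023 beside 19.8 in both libraries of Dex alone. TSC22D2 had 65.8 and 62.4 CPM with GSK591 and 66.3 and 60.8 CPM with MS023, within the 59.8 to 68.0 CPM of Dex alone. TSC22D1 had 45.2 and 45.5 CPM with GSK591 (log2 difference 0.37, 95% interval 0.13 to 0.60, adjusted p = 0.821) and 44.0 and 42.1 CPM with MS023 (0.29, 95% interval 0.05 to 0.53, adjusted p = 0.241), above the 33.3 and 37.0 CPM of Dex alone but not called.

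After 7 days of inhibitor the fold response of TSC22D3 to Dex was about the same size as without it. GSK591 alone left 14.3 and 15.3 CPM, which became 68.7 and 52.6 CPM at 15 min of Dex and 121 and 108 CPM at 3 h. The log2 fold changes were 2.03 (SE 0.138, adjusted p = 8.67e-16) and 2.95 (SE 0.136, adjusted p = 1.93e-22). MS023 alone left 20.8 and 20.9 CPM, which became 87.6 and 93.6 CPM at 15 min and 145 and 161 CPM at 3 h. Here the log2 fold changes were 2.12 (SE 0.124, adjusted p = 2.85e-18) and 2.87 (SE 0.125, adjusted p = 7.67e-24), the first being the 2nd largest of 232 called rises at or above 5 CPM. Background shares were 2.09% and 9.85% of genes for the 2 times after GSK591 and 2.07% and 11.1% after MS023.

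None of the 4 interactions, which compare the Dex response with and without an inhibitor, was called for TSC22D3, against background shares of 0.00436% at 15 min and 0.223% at 3 h for either inhibitor. With GSK591 they were 0.16 at 15 min (95% interval -0.23 to 0.55) and 0.07 at 3 h (95% interval -0.32 to 0.45). With MS023 they were 0.24 (95% interval -0.12 to 0.61) and -0.01 (95% interval -0.37 to 0.34). On the linear scale the rise at 15 min was 40.7 CPM without inhibitor (SE 4.02), 45.9 CPM after GSK591 (SE 8.06) and 69.7 CPM after MS023 (SE 2.99). At 3 h it was 97.6 CPM (SE 1.97), 99.6 CPM (SE 6.57) and 132 CPM (SE 7.69). These linear rises carry no test, and the starting level after MS023 was itself higher.

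At 3 h of Dex the level of TSC22D3 after MS023 was above that in cells given Dex alone (log2 difference 0.44, SE 0.114, adjusted p = 0.00667), where 11.5% of genes were called. It was also above that in cells given GSK591 before Dex (GSK591 minus MS023 -0.42, SE 0.114, adjusted p = 0.00975), where 11.1% were called. The first call was lost without replicate 2 of Dex 3 h (0.43, adjusted p = 0.0688) or without replicate 2 of MS023 then Dex 3 h (0.37, adjusted p = 0.106). The second was lost without replicate 2 of GSK591 then Dex 3 h (-0.35, adjusted p = 0.157) or of MS023 then Dex 3 h (-0.35, adjusted p = 0.139).

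TSC22D4 rose with Dex at 3 h but not at 15 min. The untreated libraries stood at 10.6 and 12.3 CPM, those at 15 min at 10.5 and 8.30 CPM, and those at 3 h at 19.8 and 19.8 CPM. Against untreated the log2 change was -0.29 at 15 min (SE 0.170, adjusted p = 0.798) and 0.79 at 3 h (SE 0.158, adjusted p = 0.000295), and from 15 min to 3 h it was 1.07 (SE 0.161, adjusted p = 2.58e-06). With TSC22D3 it made 2 of 4 members called higher at 3 h against untreated, where 10.5% of tested genes were called in either direction and 6.11% higher. Between 15 min and 3 h TSC22D3 and TSC22D4 rose and TSC22D2 fell, where 10.8% of genes were called.

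The late rise of TSC22D4 was also measured after both inhibitors. After GSK591 it went from 12.9 and 14.7 CPM to 23.9 and 22.0 CPM at 3 h of Dex, and the log2 change was 0.74 (SE 0.155, adjusted p = 0.000634). After MS023 it went from 12.3 and 9.41 CPM to 17.5 and 17.0 CPM, a log2 fold change of 0.67 (SE 0.148, adjusted p = 0.000966). Without replicate 2 of MS023 7 days the last value was 0.49 and not called (adjusted p = 0.102). At 15 min of Dex TSC22D4 had 11.5 and 11.8 CPM after GSK591 and 9.80 and 9.57 CPM after MS023, and neither was called against the inhibitor alone (log2 -0.24 and -0.17). Both interactions at 3 h had intervals that include 0 (GSK591 -0.05, 95% interval -0.50 to 0.39, and MS023 -0.12, 95% interval -0.56 to 0.32).

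Near TSC22D4, the protein-coding gene NYAP1 lies 4648 bp away at higher coordinates on the opposite strand, and it rose too. NYAP1 had 1.33 and 2.02 CPM in untreated libraries, 4.15 and 4.30 CPM at 15 min and 9.67 and 9.40 CPM at 3 h. Its log2 fold change was 1.32 at 15 min (adjusted p = 0.0169) and 2.49 at 3 h (adjusted p = 4.27e-09), so it was called at 15 min where TSC22D4 was not. On the other side, PPP1R35 lies 26794 bp away at lower coordinates on the same strand. It had 25.1 and 23.3 CPM untreated, 21.5 and 19.5 CPM at 15 min and 29.6 and 27.6 CPM at 3 h. C7orf61, which shares exon sequence with TSC22D4, had a log2 change of 1.48 at 3 h that was not called (SE 0.582, adjusted p = 0.0976). Their part in the TSC22D4 values was not tested.

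TSC22D2 had the reverse timing, with its highest levels at 15 min of Dex. Untreated libraries had 59.8 and 64.2 CPM, libraries at 15 min had 84.9 and 75.5 CPM, and libraries at 3 h had 68.0 and 59.8 CPM. At 15 min the groups did not overlap, but the log2 change of 0.37 was not called (SE 0.106, adjusted p = 0.0730). At 3 h it was 0.04 (SE 0.108, adjusted p = 0.861). The fall from 15 min to 3 h was called (-0.33, SE 0.107, adjusted p = 0.0386), and was no longer called without replicate 1 of Dex 15 min (-0.24, adjusted p = 0.335), replicate 2 of Dex 15 min (-0.41, adjusted p = 0.0599) or replicate 2 of Dex 3 h (-0.24, adjusted p = 0.357).

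TSC22D2 was also highest at 15 min of Dex after each inhibitor. After GSK591 it went from 61.5 and 65.5 CPM to 99.3 and 82.7 CPM at 15 min of Dex, a log2 fold change of 0.52 (SE 0.107, adjusted p = 0.00282), and stood at 67.3 and 65.0 CPM at 3 h. That rise was lost without replicate 1 of GSK591 7 days (0.47, adjusted p = 0.114) or replicate 1 of GSK591 then Dex 15 min (0.37, adjusted p = 0.123). After MS023 it went from 78.0 and 76.4 CPM to 91.4 and 94.3 CPM, which was not called (0.27, SE 0.103, adjusted p = 0.242), and stood at 63.9 and 69.7 CPM at 3 h. Against the inhibitor alone, 3 h of Dex was not called after MS023 (-0.21, SE 0.104, adjusted p = 0.221) or after GSK591 (0.06, SE 0.108, adjusted p = 0.822). The comparisons of 3 h with 15 min within each inhibitor were added after these levels were seen. They gave -0.46 after GSK591 (SE 0.107, adjusted p = 0.00182, 14.2% of genes called) and -0.47 after MS023 (SE 0.104, adjusted p = 0.000904, 12.9% called). Without replicate 1 of GSK591 then Dex 15 min the first was -0.32 (adjusted p = 0.0971), and leaving out any library of the second kept its call. The interactions of the 15 min response with GSK591 (0.15, 95% interval -0.16 to 0.45) and with MS023 (-0.10, 95% interval -0.40 to 0.19) were not called.

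**Figure D2:**
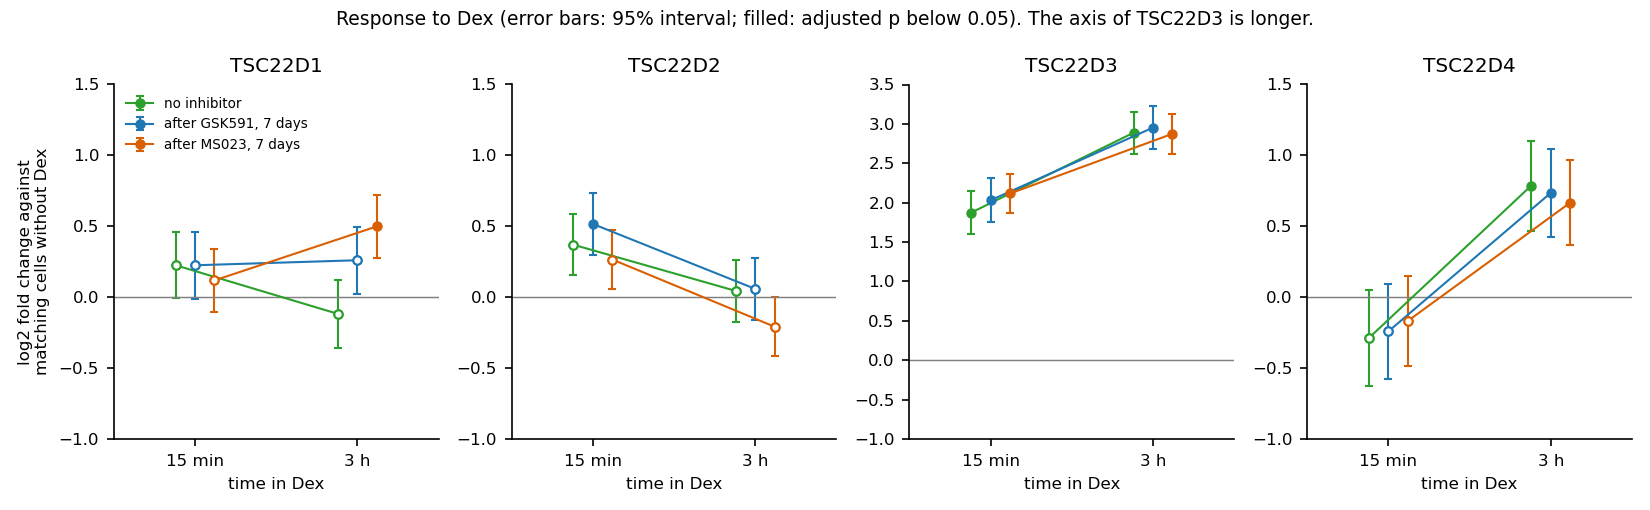
Log2 fold change of each member after 15 min and 3 h of Dex (horizontal axis) against the matching cells without Dex, without inhibitor or after 7 days of GSK591 or MS023. Points are estimates with 95% intervals, filled where the adjusted p is below 0.05, and the panel of TSC22D3 has a longer vertical axis. TSC22D3 is filled at both times in all 3 settings, TSC22D4 only at 3 h, TSC22D2 only at 15 min after GSK591 and TSC22D1 only at 3 h after MS023.

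TSC22D1 did not pass the threshold with Dex alone, and rose at 3 h of Dex after MS023. The untreated libraries had 35.6 and 40.7 CPM, against 43.7 and 45.6 CPM at 15 min (log2 0.23, SE 0.117, adjusted p = 0.693) and 37.0 and 33.3 CPM at 3 h (log2 -0.12, SE 0.119, adjusted p = 0.620). After MS023 it went from 44.3 and 43.4 CPM to 56.0 and 68.1 CPM at 3 h, and the log2 change was 0.50 (SE 0.110, adjusted p = 0.000956). Without replicate 2 of MS023 then Dex 3 h it was 0.36 and not called (adjusted p = 0.0986). After GSK591 it went from 38.2 and 43.7 CPM to 48.2 and 49.9 CPM, which was not called (log2 0.26, SE 0.118, adjusted p = 0.170). At 15 min of Dex TSC22D1 had 49.7 and 46.1 CPM after GSK591 and 49.99 and 45.2 CPM after MS023, with no call against either inhibitor alone (log2 0.23 and 0.12). From 15 min to 3 h after MS023 it rose by 0.38 (SE 0.111, adjusted p = 0.0144). That step was lost without replicate 2 of either group (0.32 without that of 15 min and 0.23 without that of 3 h).

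The interaction of MS023 with 3 h of Dex was 0.62 for TSC22D1 (95% interval 0.29 to 0.94, adjusted p = 0.0796) and missed the threshold, so the response is not shown to differ from that without inhibitor. With GSK591 it was 0.38 (95% interval 0.04 to 0.71, adjusted p = 0.485). At 3 h of Dex the level of TSC22D1 itself was higher after MS023 than without inhibitor (0.82, SE 0.115, adjusted p = 1.17e-06) and higher after GSK591 (0.48, SE 0.118, adjusted p = 0.00362, 13.6% of genes called). The MS023 difference was called with any of the 4 libraries left out. The GSK591 difference was lost without replicate 2 of Dex 3 h (0.40, adjusted p = 0.0909). GSK591 minus MS023 at 3 h of Dex was -0.34 (SE 0.112, adjusted p = 0.0399), and this call was lost without either GSK591 library (-0.32 and -0.37) or replicate 2 of the MS023 group (-0.19, adjusted p = 0.483). TSC22D1-AS1, the antisense gene that shares exon sequence, was also lower there (-0.49, adjusted p = 0.0437), and its part in the TSC22D1 value was not tested.

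With MS023 alone, TSC22D3 was called higher than untreated on all 3 days, TSC22D1 at 2 and 4 days and TSC22D2 at 7 days. With GSK591 alone, TSC22D1 was called higher at 2 and 4 days and TSC22D2 lower at 4 days. TSC22D3 had 23.6 and 22.4 CPM after 2 days of MS023, 23.6 and 27.9 CPM after 4 days and 20.8 and 20.9 CPM after 7 days, all above the untreated 13.5 and 16.9 CPM. The log2 fold changes were 0.59 (SE 0.140, adjusted p = 0.00318), 0.76 (SE 0.136, adjusted p = 6.02e-05) and 0.45 (SE 0.138, adjusted p = 0.0206). The call at 4 days held with any of the 4 libraries left out. At 2 days the call was lost without replicate 1 of untreated (0.44, adjusted p = 0.144) or of MS023 2 days (0.55, adjusted p = 0.0501). At 7 days it was lost without replicate 1 of untreated (0.30, adjusted p = 0.331) and without either MS023 library (0.45 in both cases).

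With GSK591, TSC22D3 had 19.4 and 19.8 CPM at 2 days, 15.0 and 17.9 CPM at 4 days and 14.3 and 15.3 CPM at 7 days, and none of the 3 was called (log2 0.36, 0.11 and -0.04). Set directly against each other, GSK591 minus MS023 was -0.23 at 2 days (SE 0.139, adjusted p = 0.494), -0.65 at 4 days (SE 0.134, adjusted p = 0.000876) and -0.50 at 7 days (SE 0.142, adjusted p = 0.0172). TSC22D3 was the only member called at 4 and at 7 days, and none was called at 2 days, where the background shares were 6.03%, 9.38% and 2.69% of genes. At 4 days the call was lost without replicate 1 of GSK591 (-0.54, adjusted p = 0.0750) or replicate 2 of MS023 (-0.53, adjusted p = 0.0688). At 7 days it was lost without any one of the 4 libraries (-0.54 to -0.46).

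TSC22D1 was highest at 2 days of either inhibitor. MS023 gave 55.8 and 63.6 CPM at 2 days, 48.9 and 50.2 CPM at 4 days and 44.3 and 43.4 CPM at 7 days, against 35.6 and 40.7 CPM untreated. The log2 fold changes were 0.65 (SE 0.115, adjusted p = 8.59e-05), 0.38 (SE 0.114, adjusted p = 0.0194) and 0.20 (SE 0.115, adjusted p = 0.266). The call at 2 days held with any library left out. That at 4 days was lost without replicate 1 of untreated (0.29, adjusted p = 0.273), or without MS023 replicate 1 (0.40) or replicate 2 (0.36). No difference between days of one inhibitor was tested.

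GSK591 gave TSC22D1 levels of 49.7 and 51.9 CPM at 2 days, 42.9 and 53.5 CPM at 4 days and 38.2 and 43.7 CPM at 7 days. The log2 fold changes were 0.41 (SE 0.117, adjusted p = 0.0254), 0.34 (SE 0.116, adjusted p = 0.0374) and 0.10 (SE 0.119, adjusted p = 0.652). The call at 2 days was lost without replicate 1 of untreated (0.32, adjusted p = 0.308), or without GSK591 replicate 1 (0.45) or replicate 2 (0.38). At 4 days it was lost without replicate 1 of untreated (0.24, adjusted p = 0.343) or replicate 2 of GSK591 (0.17, adjusted p = 0.522). TSC22D1 did not differ by call between the inhibitors at any day.

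TSC22D2 had 1 fall and 1 rise among the 6 inhibitor comparisons, both near the threshold, and the fall turned to 0.11 when total counts were the only scaling. It had 47.2 and 53.1 CPM after 4 days of GSK591 against 59.8 and 64.2 CPM untreated, a log2 change of -0.31 (SE 0.108, adjusted p = 0.0415), and 78.0 and 76.4 CPM after 7 days of MS023, a change of 0.32 (SE 0.106, adjusted p = 0.0366). Leaving out any one of the 4 libraries ended the call in both cases (-0.39 to -0.24 and 0.27 to 0.37). At 2 days TSC22D2 had 56.6 and 57.8 CPM with GSK591 and 65.1 and 58.4 CPM with MS023, close to untreated. TSC22D4 stood between 11.9 and 15.2 CPM in the 8 libraries at 2 and 4 days. It was called in none of the 6, and its largest change was 0.39 after 4 days of GSK591 (SE 0.160, adjusted p = 0.0859). Background shares at 2, 4 and 7 days were 5.64%, 17.2% and 13.2% of genes with GSK591 and 10.4%, 14.2% and 13.6% with MS023.

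**Figure D3:**
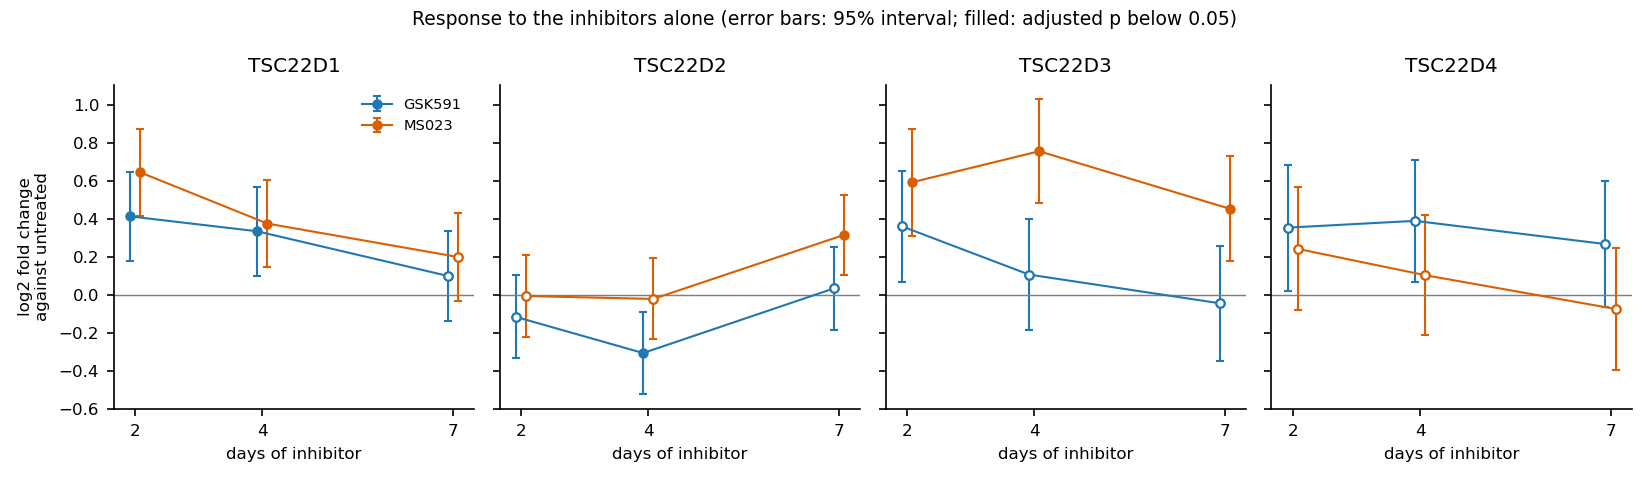
Log2 fold change of each member against untreated cells after 2, 4 and 7 days of GSK591 or MS023, with 95% intervals and filled points where the adjusted p is below 0.05. TSC22D3 is filled on all 3 days of MS023 and on no day of GSK591, and TSC22D1 is filled on days 2 and 4 of both.

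The 6 groups that combined an inhibitor with Dex were also set against untreated cells. TSC22D3 was higher in all 6, from 1.99 at GSK591 then Dex 15 min to 3.33 at MS023 then Dex 3 h. TSC22D4 was higher in the 4 groups with 3 h of Dex, from 0.59 at MS023 then Dex 3 h (SE 0.154, adjusted p = 0.00335) to 1.05 at Dex with GSK591 (SE 0.154, adjusted p = 9.66e-07), and in neither group at 15 min. TSC22D2 was higher only in the 2 groups at 15 min, by 0.55 with GSK591 (SE 0.107, adjusted p = 0.000142) and 0.58 with MS023 (SE 0.106, adjusted p = 4.92e-05). TSC22D1 was higher at MS023 then Dex 3 h (0.70, SE 0.114, adjusted p = 4.90e-06) and, closer to the threshold, at GSK591 then Dex 3 h (0.36, adjusted p = 0.0169) and MS023 then Dex 15 min (0.32, adjusted p = 0.0472). The TSC22D4 call was lost at MS023 then Dex 3 h without replicate 1 of untreated (0.49, adjusted p = 0.0839) and at Dex with MS023 without its replicate 1 (0.49, adjusted p = 0.0602). The TSC22D1 call at MS023 then Dex 15 min was lost without any one of the 4 libraries (0.22 to 0.41). At GSK591 then Dex 3 h it was lost without replicate 1 of untreated (0.26, adjusted p = 0.222) or either library of the treated group (0.38 and 0.33). Background shares were 11.9% of genes for Dex with GSK591 and 12% for Dex with MS023, 15.5% and 26.8% for 15 min and 3 h of Dex after GSK591, and 17.2% and 21.9% after MS023. All 6 share the untreated libraries.

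Over all 33 comparisons TSC22D3 was called higher in 19 and lower in 3, TSC22D4 higher in 10, TSC22D1 higher in 11 and lower in 1, and TSC22D2 higher in 4 and lower in 4. In single comparisons between 0% and 26.8% of all tested genes were called. The comparisons share groups, so these tallies count the same change more than once. Pearson's r of log2 group means over the 15 groups was 0.50 for TSC22D3 with TSC22D4, 0.36 for TSC22D2 with TSC22D3 and -0.50 for TSC22D2 with TSC22D4, and between -0.03 and 0.08 for the 3 pairs with TSC22D1. These groups share treatments, so r is a description. Among the 11116 genes averaging 5 CPM or more, those most like TSC22D3 over the 15 groups were ZFP36, which encodes an mRNA decay factor (r = 0.972), FGD4 (r = 0.971), the metallothionein MT1X (r = 0.965), IL6R, the interleukin-6 receptor (r = 0.960), and MT2A, another metallothionein (r = 0.957). Most like TSC22D4 were TLE5, a co-repressor (r = 0.964), GPR161 (r = 0.947) and SPDYA (r = 0.946). TSC22D2 was closest to NKIRAS1, an inhibitor of NF-kappaB signalling (r = 0.921), CAVIN2 (r = 0.911) and RASEF (r = 0.903). TSC22D1 had looser neighbours, led by ZKSCAN8 (r = 0.804), NR2F2, an orphan nuclear receptor (r = 0.790), and TENT5A (r = 0.786).

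Of the 16 genes of the WNK and NRBP list, 15 were tested and SLC12A3 was not. At 3 h of Dex 2 of the 15 were higher and none lower, where 10.5% of all tested genes were called and 6.11% were higher. They were the pseudokinase gene NRBP2 (log2 0.52, SE 0.132) and SLC12A5, a potassium chloride cotransporter gene (log2 0.73, SE 0.158). The list's median was 0.12, against -0.01 over all tested genes. At 2, 4 and 7 days of MS023 3, 2 and 1 of the 15 were higher and, at 7 days only, 1 was lower. There 10.4%, 14.2% and 13.6% of all tested genes were called. With GSK591 1, 2 and 1 were higher and none lower, where 5.64%, 17.2% and 13.2% were called. SLC12A2, the gene of the sodium potassium chloride cotransporter NKCC1, was higher at 2 days (log2 0.63), 4 days (1.26) and 7 days (0.93) of MS023. CAB39, which encodes a scaffold of the kinases below WNK, was higher at 2 days of GSK591 (0.85) and of MS023 (0.67). NRBP1 was called in none of the comparisons with Dex or an inhibitor alone described here.

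Genes of proteins that bind TSC22D3 protein moved both ways. At 15 min of Dex 1 of the 9 was called, against 1.26% of all tested genes, with JUN of the AP-1 complex lower (log2 -0.52, SE 0.123, adjusted p = 0.0120). At 3 h 4 of the 9 were higher and 2 lower, against 10.5% of all tested genes called, among them FOXO3 (0.92, SE 0.130), HRAS (0.58, SE 0.186) and JUN (-1.21, SE 0.130), with a median of 0.11. JUN was lower after 2 and 4 days of GSK591 (-0.87 and -1.35) and of MS023 (-0.76 and -1.42) and higher after 7 days of each (0.74 and 0.38). MDM2, the p53 ligase gene, was higher after 7 days of GSK591 (1.59, SE 0.113) and of MS023 (1.07, SE 0.111).

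Of the 9 TGF-beta genes none was called at 15 min of Dex, where 1.26% of all tested genes were called. At 3 h 2 were higher and 2 lower, with a median of 0.07, where 10.5% of all tested genes were called. The ligand gene TGFB2 fell (log2 -1.71, SE 0.206, adjusted p = 9.88e-09), as did SMAD3, a signal transducer (-1.23, SE 0.114, adjusted p = 5.53e-12), while the receptor gene TGFBR1 rose (0.93, SE 0.260, adjusted p = 0.0188). At 3 h of Dex after 7 days of inhibitor, TGFB2 fell by 2.29 on the log2 scale with GSK591 and by 1.93 with MS023. TSC22D1, named for TGF-beta, had no called change at 3 h of Dex without inhibitor. TGFB1 was higher on each day of GSK591 (0.53, 0.80 and 0.50) and of MS023 (0.77, 0.85 and 0.40), and TGFBR2 on each day of MS023 (0.93, 0.94 and 0.63). At 4 days 2 of the 9 were higher and 3 lower with either inhibitor, with a median of -0.38 for GSK591 (17.2% of all tested genes called) and -0.32 for MS023 (14.2% called). Those lower were SMAD3 (-0.38 and -0.32) and SMAD7, an inhibitor of the pathway (-0.46 and -0.42), with both, TGFB3 (-0.80) with GSK591 and TGFBR1 (-1.07) with MS023. SMAD7 was named after its values were seen.

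The authors' deposited tables, which set 14 treatments against untreated, could be compared for 3 members. TSC22D4 is listed in them only under a joint name with C7orf61, which was not matched here. The authors' deposited tables call 3.93% of genes at 15 min of Dex and 21.9% at 3 h, 21.7% and 19.8% at 3 h of Dex with GSK591 or MS023, and 14.7%, 26.8% and 23.8% at 2, 4 and 7 days of GSK591. For 2, 4 and 7 days of MS023 the shares in the authors' deposited tables are 17.7%, 22.5% and 22%, for 15 min and 3 h of Dex after GSK591 23.5% and 34.2%, and after MS023 24.4% and 30%. For TSC22D3 the call was the same in 14 of 14 comparisons and the sign in 12, and in the authors' deposited table its log2 fold change was 2.15 at 15 min of Dex and 3.28 at 3 h. TSC22D2 had the same call in 11 of 14. In the authors' deposited table it was higher at 15 min of Dex (log2 0.61, adjusted p = 1.01e-07, with 3.93% of genes called there), where the count table gave 0.37 and no call. After 4 days of MS023 the authors' deposited table has TSC22D2 lower (-0.30, 22.5% of genes called), where the count table gave -0.02. After 7 days of MS023 the authors' deposited table gives 0.19 and no call, where the count table gave 0.32 and a call.

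TSC22D1 had the same call in 6 of 14 comparisons. For MS023 followed by 15 min of Dex the authors' deposited table has TSC22D1 lower than untreated (-0.26, adjusted p = 0.00698, 24.4% of genes called), where the count table has it higher (0.32, adjusted p = 0.0472, 17.2% called). For 2 and 4 days of MS023 the authors' deposited tables give 0.06 and 0.02 and no call, against 0.65 and 0.38 and calls here. For 2 days of GSK591 the authors' deposited table gives 0.17 and no call, against 0.41 and a call here. At 4 days of GSK591 both call TSC22D1 higher (0.21 there and 0.34 here). After 7 days of MS023 the authors' deposited table has it lower (-0.25, adjusted p = 0.0081, 22% called), against 0.20 and no call here. For Dex at 3 h the authors' deposited table gives 0.22 (adjusted p = 0.0276, 21.9% called), against -0.12 here. How the tables' counts were made is not given in the sources used here, and the part of the counting in these differences was not tested.

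**Figure D4:**
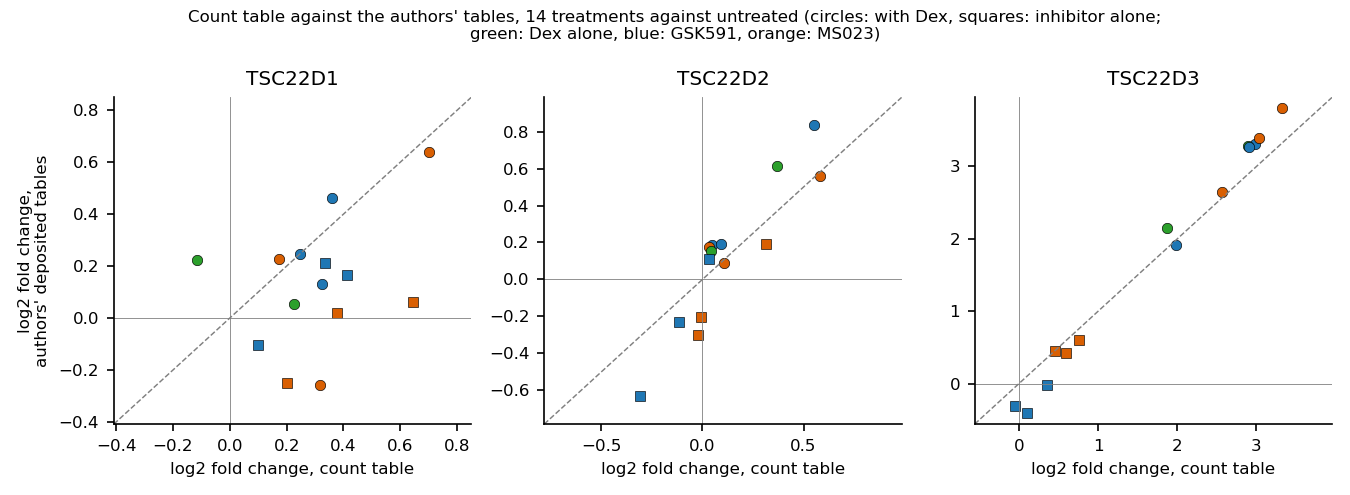
Log2 fold change against untreated in the count table (horizontal axis) and in the authors' deposited tables (vertical axis) for the 14 treatments, with circles where Dex was given and squares for an inhibitor alone. The dashed line marks equal values: TSC22D2 keeps its sign in all 14, TSC22D3 in 12 and TSC22D1 in 10, and TSC22D3 lies above the line at 3 h of Dex (3.28 against 2.89).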

How the data were processed

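The data were nascent RNA counts of 30 A549 libraries in 15 labelled groups of 2. Raw counts, not normalised, are what the deposited matrix contains, made by the authors with featureCounts 2.0.1 of Subread on hg38 per the submitters' processing notes. Counting settings are not given in the sources used here. The authors also deposited 14 comparison tables that per the file headers give a mean signal per gene (baseMean), log2 fold changes with standard errors, and p-values with adjusted p-values. All 58780 gene IDs matched GENCODE 29.

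Each comparison used the edgeR quasi-likelihood test on the counts (edgeR 4.0.16, limma 3.58.1, R 4.3.3), with TMM scaling, the filterByExpr filter (minimum count 10, minimum total 15), robust fitting and all 15 groups in 1 fit with 15 residual degrees of freedom. Adjusted p-values are Benjamini-Hochberg over 22919 genes in each of 33 comparisons, called below 0.05, and every adjusted p in the text not credited to the authors comes from this test unless another tool is named. An interaction is the Dex response after an inhibitor minus that without it. Likeness used log2 CPM with a mean prior count of 2.

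The members, the pathway lists and the naming rule were chosen with earlier results of these data known. The rule names the 4 members, up to 3 called genes of each list with the largest change, the 5 genes most like each member, neighbouring protein-coding genes and genes that share exons. NRBP1 and the markers named fall outside it and were picked with their values in view. Of the nearest protein-coding genes that share no exon with a member, only those of TSC22D4 are described. Alternatives were DESeq2 size factors, scaling by total counts alone, no filter, DESeq2 1.42.0, the compared groups alone, a replicate block, leaving out each library, and removal of 595 mitochondrial and ribosomal RNA genes. The fit was also run on simulated counts with known changes, drawn with its own estimates of spread. Recovery there was nearly fixed in advance and says nothing about library effects such as the mitochondrial share. Each library pools many cells, so fewer transcribing cells and less nascent RNA per cell cannot be told apart. No molecular identifiers are mentioned.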

Additional observations from a re-analysis of the deposited data

Results flagged for a closer look

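In 4 results the effects of GSK591 and MS023 on 1 member differed by the test of the difference itself, in the edgeR quasi-likelihood fit with Benjamini-Hochberg adjustment. All 4 members were looked at for 2, 4 and 7 days and for Dex 3 h after 7 days of inhibitor. The shares of all tested genes called there were 2.69%, 6.03%, 9.38% and 11.1%, in that order. For TSC22D3, GSK591 minus MS023 was -0.65 on the log2 scale at 4 days (adjusted p = 0.000876) and -0.50 at 7 days (adjusted p = 0.0172). With Dex for 3 h after 7 days of inhibitor it was -0.42 for TSC22D3 (adjusted p = 0.00975) and -0.34 for TSC22D1 (adjusted p = 0.0399). In each case both GSK591 libraries were below both MS023 libraries. The calls come from these same libraries, so that separation adds no support. No interaction of an inhibitor with Dex was called for any of the 4 members, where 0.00436% of all tested genes were called at 15 min and 0.223% at 3 h for either inhibitor. The mitochondrial share of counts was lower in the MS023 groups than in the GSK591 groups (64.9% to 66.1% against 69.5% to 70.3% at 4 days, and 58.7% to 59.6% against 73.7% to 78.7% at 7 days), and its part in these differences was not tested. All 4 kept their call without mitochondrial and ribosomal RNA genes. That refit also used TMM, in which such genes carry little weight, so it does not test the share. In DESeq2 the calls of TSC22D3 at 7 days (-0.49, adjusted p = 0.0663) and of TSC22D1 (-0.33, adjusted p = 0.109) were lost. Those of TSC22D3 at 4 days (-0.65) and with Dex (-0.41) were kept. Each of the 4 calls was lost with some library left out, as given above.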

How the results depend on the processing

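Of 1516 member values under the alternatives, 83 lost a call and 21 gained one without a change of sign. In 89 the sign changed, and in 82 of these the value was called neither before nor after (56 with a library left out, 15 with total counts as the only scaling). The 7 others, with a call on one side, all came with total counts: TSC22D2 at 4 days of GSK591 (0.11) and at 2 and 4 days of MS023 (0.67 and 0.72), and TSC22D4 at 7 days of MS023 (0.94), GSK591 minus MS023 at 7 days (-0.71), MS023 then Dex 3 h against Dex 3 h (0.65) and MS023 then Dex 15 min against untreated (0.63). That scaling moved the median of all genes by -1.07 to 1.02, beyond 0.1 in 27 of 33 comparisons. After taking that median off, no member differed from its TMM value by more than 0.0418. A change of scaling moves all genes of a comparison nearly alike, so this closeness was fixed in advance and is no check. Total counts as the only scaling also ended calls. For TSC22D2 these were Dex 3 h against 15 min without inhibitor (-0.48), after GSK591 (-0.28) and after MS023 (-0.34). Its calls at GSK591 then Dex 15 min against GSK591 (0.55) and against untreated (0.56) ended too. For TSC22D1 they were MS023 then Dex 3 h against MS023 (0.49) and against 15 min (0.51), and GSK591 then Dex 3 h against Dex 3 h (0.50) and against untreated (0.53). For TSC22D4 it was MS023 then Dex 3 h against MS023 (0.66). With DESeq2 size factors TSC22D2 at Dex 15 min was called (0.38, adjusted p = 0.0484).

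Calls were lost without the filter and in DESeq2, in that order, for TSC22D2 at Dex 3 h against 15 min (-0.33 and -0.33), TSC22D1 at 2 days (0.40 and 0.42) and 4 days of GSK591 (0.33 and 0.35), TSC22D2 at 4 days of GSK591 (-0.31 and -0.29) and TSC22D1 at GSK591 minus MS023 with Dex 3 h (-0.37 and -0.33). The same holds for TSC22D1 at MS023 then Dex 15 min against untreated (0.29 and 0.34). Leaving off the filter, but not DESeq2, ended TSC22D2 at 7 days of MS023 (0.34) and TSC22D1 at GSK591 then Dex 3 h against untreated (0.34), while DESeq2, but not leaving off the filter, ended TSC22D3 at GSK591 minus MS023 at 7 days (-0.49) and TSC22D1 at Dex 3 h against 15 min after MS023 (0.37). With the compared groups alone TSC22D2 at Dex 3 h against 15 min (-0.32), TSC22D1 at GSK591 minus MS023 with Dex 3 h (-0.32) and TSC22D4 at Dex with MS023 against untreated (0.75) were lost. The cause was not tested.

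With 1 library left out, TSC22D2 ranged from -0.42 to -0.24 at Dex 3 h against 15 min, from -0.59 to -0.32 for the same step after GSK591, from 0.37 to 0.64 at GSK591 then Dex 15 min, from -0.39 to -0.24 at 4 days of GSK591, from 0.27 to 0.37 at 7 days of MS023 and from 0.28 to 0.45 at Dex 15 min. TSC22D1 ranged from 0.32 to 0.52 and 0.17 to 0.48 at 2 and 4 days of GSK591, 0.29 to 0.48 at 4 days of MS023, 0.36 to 0.64 at MS023 then Dex 3 h, 0.40 to 0.55 at GSK591 then Dex 3 h against Dex 3 h and -0.48 to -0.19 at GSK591 minus MS023 with Dex 3 h. TSC22D3 ranged from 0.44 to 0.77 and 0.30 to 0.63 at 2 and 7 days of MS023, -0.78 to -0.53 and -0.54 to -0.46 at GSK591 minus MS023 at 4 and 7 days, 0.37 to 0.52 at MS023 then Dex 3 h against Dex 3 h and -0.51 to -0.35 at GSK591 minus MS023 with Dex 3 h. TSC22D4 at MS023 then Dex 3 h ranged from 0.49 to 0.89. Where the lone library stands for a group it is assumed to vary like the others.

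The differences between replicates 1 and 2 correlated between -0.451 and 0.487 over 105 pairs of groups, with 62 above 0. Replicate numbers thus showed no common direction over the groups. Whether libraries were handled together under another numbering was not tested. A fit with the replicate block ended no call of a member and added calls, such as TSC22D1 at Dex 3 h against 15 min (-0.34, adjusted p = 0.0441). Over all genes the number called differed from the edgeR count by more than 1.5 times in 26 of 32 comparisons with DESeq2, all lower (at Dex 3 h 1468 against 2410), and with total counts was higher in 11 and lower in 16. With the compared groups alone it was higher in 7 and lower in 5 (at Dex with MS023 against untreated 660 against 2758), without the filter higher in 5 and with the block higher in 2. With 2 libraries a group and 83 to 249 counts, TSC22D4 is the least precise member.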
